A study of Mus musculus with 148 samples.

Results

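The CpGs described here lie in the middle of the mouse lactase gene, *Lct*, on chromosome 1 of GRCm38 (chr1:128293401-128303751), a stretch of 10351 bp that runs, in the direction of transcription, from intron 7 through exons 8 to 12 into intron 12. The rule took every cytosine of a CpG, on each strand, in this window. It found 198 cytosines at 99 CpG sites, of 3762 CpG cytosines in the deposited files and 1102 in the *Lct–Mcm6* locus. More than 30 reads in at least 50% of the samples were available at 134 of the 198, which are called the covered CpGs below. They span chr1:128293466-128301264. Of the other 64, 60 lay in no capture probe and 4 lay in a probe target but had medians of 4.5 to 24.5 reads. None of the 4 cytosines of intron 7 was covered, so the data begin in exon 8. Exon 8 held 39 covered CpGs, intron 8 had 4, exon 9 had 16, intron 9 had 28, exon 10 had 16, intron 10 had 3, exon 11 had 10, intron 11 had 8, exon 12 had 5 and the near end of intron 12 had 5.

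*Lct* encodes lactase-phlorizin hydrolase, the brush border enzyme of villus enterocytes that splits the lactose of milk. Its expression is high in the suckling small intestine, falls after weaning in most mammals and varies along the adult intestine. Cytosine methylation at CpGs is copied by maintenance enzymes when cells divide. Within transcribed genes it is usually high, and sites where proteins bind often carry less of it. Bisulfite converts unmodified cytosine and leaves both methylcytosine and hydroxymethylcytosine in place, so the readout is called DNA modification here and does not separate them.

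Enterocytes were isolated from the villi of mice of a C57BL/6 substrain, written C57BL/6MCrl in the strain label and C57BL/6NCrl in the protocols, and the small intestine had been cut into 9 segments from proximal (segment 1) to distal (segment 9). The labels call segment 3 distal duodenum and the study treats it as proximal jejunum. The P60 group held untreated adults at postnatal day 60, with 8 samples in each segment and 7 in segment 6. The P6 group held infants at postnatal day 6, with 3, 3 and 4 samples in segments 1, 3 and 7. The P90 groups held adults at postnatal day 90 that had drunk lactose-containing milk (P90 LAC+, 7 samples in each of segments 1, 3, 4, 7 and 8) or lactose-free milk (P90 lac-, 6, 6, 7, 6 and 7 samples in the same segments) for 60 days. The design text gives 5 to 6 per segment for P60, fewer than the samples in the files, so samples may not all be separate mice, and the spread between them may be partly technical. The cell type could not be checked, since no RNA was measured in these files.

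Each value is the percentage of reads that called a cytosine modified. Reads per covered CpG had a median between 923.5 and 3959 in the P60 samples, 1525 and 3105 in P6, 837.5 and 8930.5 in P90 lac- and 1358 and 8561 in P90 LAC+. The spread between samples exceeded counting error, with a median variance of 3.96 times the binomial one over the covered CpGs tested across P60 segments. Reads copied by PCR are not independent molecules, however. Single CpGs could have far fewer reads, such as a P60 median of 30 at 128299897 on the plus strand. Cytosines outside CpGs read as modified at 0.381% ± 0.0248 (SD, n = 71) in P60, 0.484% ± 0.0210 (n = 10) in P6, 0.466% ± 0.0285 (n = 32) in P90 lac- and 0.462% ± 0.0234 (n = 35) in P90 LAC+. Such reads mix incomplete conversion with any real modification outside CpGs, so they do not measure conversion alone. P60 was run on lanes 5, 6 and 7 in every segment, with 1 further sample on lane 4. All P6 samples were on lane 8, so that age and lane cannot be told apart.

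The sequences that carry the main differences are shown first, on the plus strand of GRCm38 in the 5′ to 3′ direction. The gene reads the other way. Capitals mark the CpGs of the window. The first holds the border of exon 9 and intron 9, the second the border of intron 9 and exon 10, the third exon 12, the fourth the interior of exon 10 and the fifth the interior of exon 9.
Exon 9 and intron 9 border, chr1:128298427-128298494: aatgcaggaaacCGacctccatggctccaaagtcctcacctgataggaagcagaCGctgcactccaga
Intron 9 and exon 10 border, chr1:128295340-128295484: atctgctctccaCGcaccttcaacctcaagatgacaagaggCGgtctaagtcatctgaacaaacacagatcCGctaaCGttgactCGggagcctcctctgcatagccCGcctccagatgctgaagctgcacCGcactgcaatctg
Exon 12, chr1:128293620-128293745: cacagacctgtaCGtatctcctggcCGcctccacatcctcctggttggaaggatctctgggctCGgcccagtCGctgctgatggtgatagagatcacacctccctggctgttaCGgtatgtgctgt
Exon 10 interior, chr1:128295144-128295211: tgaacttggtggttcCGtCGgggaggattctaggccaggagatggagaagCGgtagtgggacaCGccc
Exon 9 interior, chr1:128298591-128298615: ctcttgctgttCGaggtctgttcac
The window at the exon 9 and intron 9 border holds 2 CpG sites in 68 bases, whereas the one at the intron 9 and exon 10 border holds 7 in 145 bases. Their G and C content is alike, at 54.4% and 54.5%. A cytosine is named below by its position and its strand, and the minus-strand cytosine of a site lies 1 base to the right of the plus-strand one.

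Most of these CpGs were heavily modified. The median covered CpG stood at 90.2% over the P60 samples, and 70 of the 134 were above 90%. The 3 highest were all in exon 8, where the plus-strand cytosines at 128300312 and 128300619 stood at 97.1% and 96.5% and the minus-strand one at 128300609 at 96.4%. Against this background the modification dipped near 3 exon borders. At the border of exon 9 and intron 9, the intronic site at 128298439 stood at 38.5% on the plus strand and at 39.8% on the minus strand, and the exonic site at 128298481 at 59.4% and 60.3%. Just upstream of exon 10, the intron 9 site at 128295425 stood at 42.02% on the plus strand and 43.04% on the minus strand. At the start of intron 8, just past exon 8, the minus-strand cytosine at 128299820 stood at 49.3%. Some lowered sites lay side by side. The intron 9 site at 128295417, next to the one at 128295425, stood at 51.8% on the plus strand and 53.6% on the minus strand. The intron 9 site at 128295381 lies between these and exon 10 and stood higher, at 90.9% on the plus strand. The dip thus lay inside intron 9 and not at the exon 10 end itself. Several exon 9 CpGs farther from the border with intron 9 also stood above 90%.

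Both strands were covered at 56 sites. Leaving out the site read in a probe arm, they differed by a median of 1.21 points over 55 sites, and 54 differed by less than 5 points. The exception was in intron 9, at 128297976, where the plus strand stood at 49.3% and the minus strand at 85.4%, with medians of 354 and 1356 reads in P60. Its cause was not tested. Next in size among these was the exon 8 site at 128300192, with 93.3% on the plus strand and 89.1% on the minus strand. The 3 lowest values came from cytosines that lie in the annealing arm of a padlock probe, the synthetic oligonucleotide that captures the target. These were the minus-strand cytosine at 128293534 (3.33% ± 0.290, SD, n = 71), the minus-strand one at 128298028 (4.49% ± 1.13) and the plus-strand one at 128294342 (24.6% ± 4.29), the last of which is also read in the target of another probe. On the opposite strand of the site at 128298027, the plus-strand cytosine stood at 78.2%. The pair of intron 9 sites with unlike strands is shown because it limits what a single strand can tell.
Intron 9 strand pairs, chr1:128297964-128298040: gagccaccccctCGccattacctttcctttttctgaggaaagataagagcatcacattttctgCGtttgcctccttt
The 3 arm cytosines were kept in the counts of tests and left out of every mean over several CpGs.

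**Figure D1:**
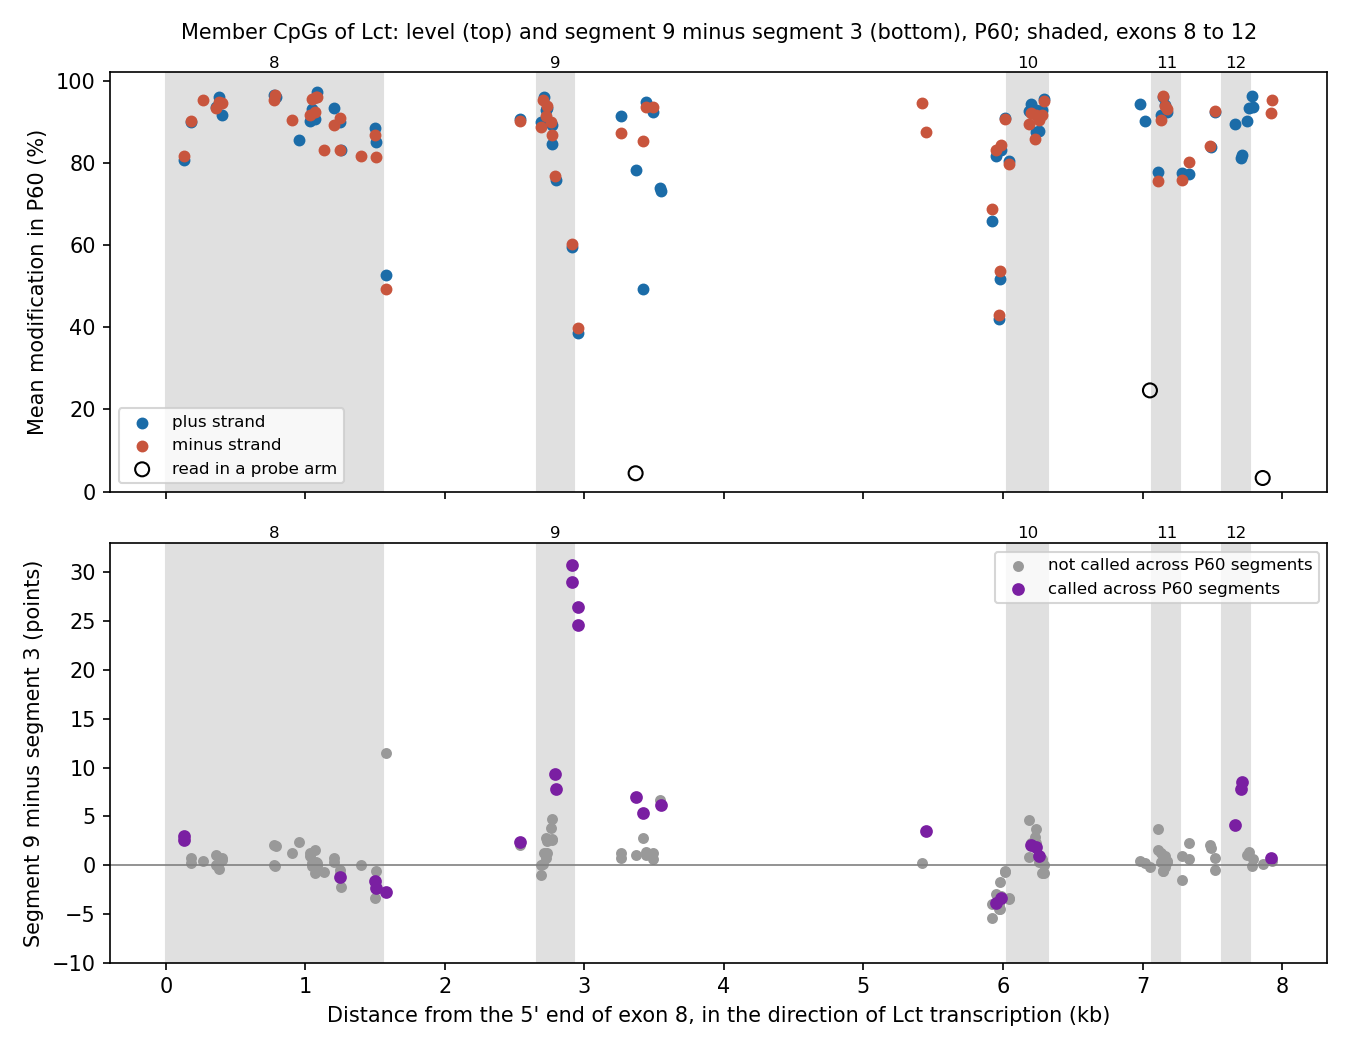
Mean DNA modification of each covered CpG over the 71 P60 samples (top, percent, by strand, with open circles for the 3 read in a probe arm) and the difference between segment 9 and segment 3 (bottom, percentage points), by distance in kb from the 5′ end of exon 8 in the direction of transcription. Exons 8 to 12 are shaded and numbered; the level drops to 38.5% at the border of exon 9, where the difference reaches 30.8 points, and the CpGs next to exon 10 lie below 0.

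The first question was whether the modification of these CpGs differs along the adult intestine. It did at 26 of the 131 covered CpGs tested across the 9 P60 segments, or 19.8%, where 17.2% of all 653 CpGs tested in the locus passed the same threshold (quasi-binomial F test, Bonferroni-adjusted p below 0.01). The share was thus near that of the locus. Of the 26, 20 were higher in segment 9 than in segment 3 and 6 were lower. Over all covered CpGs 93 of 134 were higher, and in the locus 447 of 665. Segment 1 was the lowest in 17 of the 26 and segment 9 the highest in 17. Among all 131 tested, segment 1 was the lowest in 68 and segment 9 the highest in 40. By Benjamini-Hochberg adjusted p below 0.05, 56 of 131 passed (42.7%), against 29.4% of the locus. The called CpGs were of intermediate level, with a median of 81.7% against 91.3% for the CpGs not called, and were read more deeply, with medians of 3187 and 1357 reads. The part of depth in the calls was not tested. Exons held 15 of the 26 called and 69 of those not called. Among the 56 sites covered on both strands, 4 were called on both and 12 on 1 strand only. The 12 include sites whose other strand was not tested.

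The border of exon 9 and intron 9 changed most. The plus-strand cytosine at 128298481, inside exon 9, ranged from 41.6% to 49.7% with a median of 46.7% in segment 3 and from 74.7% to 80.3% with a median of 76.8% in segment 9. The groups did not overlap, and the difference was 30.8 points (adjusted p = 2.32e-23 across the 9 segments by the F test). Its level stayed near 50% in the first 4 segments, with 49.4% ± 3.71 (SD, n = 8) in segment 1, and climbed from 57.01% ± 4.88 in segment 5 to 64.7% ± 7.19 (n = 7) in segment 6, and reached 69.5% ± 3.23 in segment 7. On the other strand, the cytosine at 128298482 ran from 45.4% to 50.2% (median 48.5%) in segment 3 and from 70.98% to 85.2% (median 77.2%) in segment 9, a difference of 29.03 points (adjusted p = 1.90e-22, F test). The strands were separate measurements of the same DNA, not separate samples.

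On the intron 9 side the pattern was the same from a lower base. The plus-strand cytosine at 128298439 lay between 26.4% and 35.7% (median 29.7%) in segment 3 and between 48.2% and 59.5% (median 55.1%) in segment 9, without overlap. That is a rise of 24.6 points (adjusted p = 3.92e-17, F test). Its minus-strand partner at 128298440 lay between 22.4% and 36.6% (median 29.4%) in segment 3 and between 51.8% and 63.9% (median 57.2%) in segment 9, also without overlap and 26.5 points apart (adjusted p = 1.51e-13, F test). Within lanes 5, 6 and 7 the plus-strand cytosine at 128298481 was higher in segment 9 by 31.4, 31.2 and 28.4 points.

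Averaged over its 4 cytosines, the border stood, in order from segment 1 to 4, at 40.8% ± 3.26, 39.6% ± 6.22, 38.8% ± 2.69 and 41.7% ± 3.51 (SD, n = 8 each). From segment 5 to 9 the means were 46.8% ± 2.87, 52.7% ± 5.97, 57.97% ± 2.63, 61.3% ± 4.43 and 66.5% ± 3.42 (n = 8 each, with 7 in segment 6). Segments 1 to 4 were alike within their spread, and every sample of segments 7 to 9 lay above every sample of segments 1 to 4. Segment 6 was the widest of the distal ones, from 41.6% to 60.96%. The site in the interior of exon 9 changed less. Its minus-strand cytosine at 128298603 ran from 67.9% to 76.1% (median 74.9%) in segment 3 and from 80.5% to 85.2% (median 82.9%) in segment 9, 9.35 points apart and without overlap (adjusted p = 7.42e-16, F test). Segment 1 was lower still there, at 69.0% ± 3.31.

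**Figure D2:**
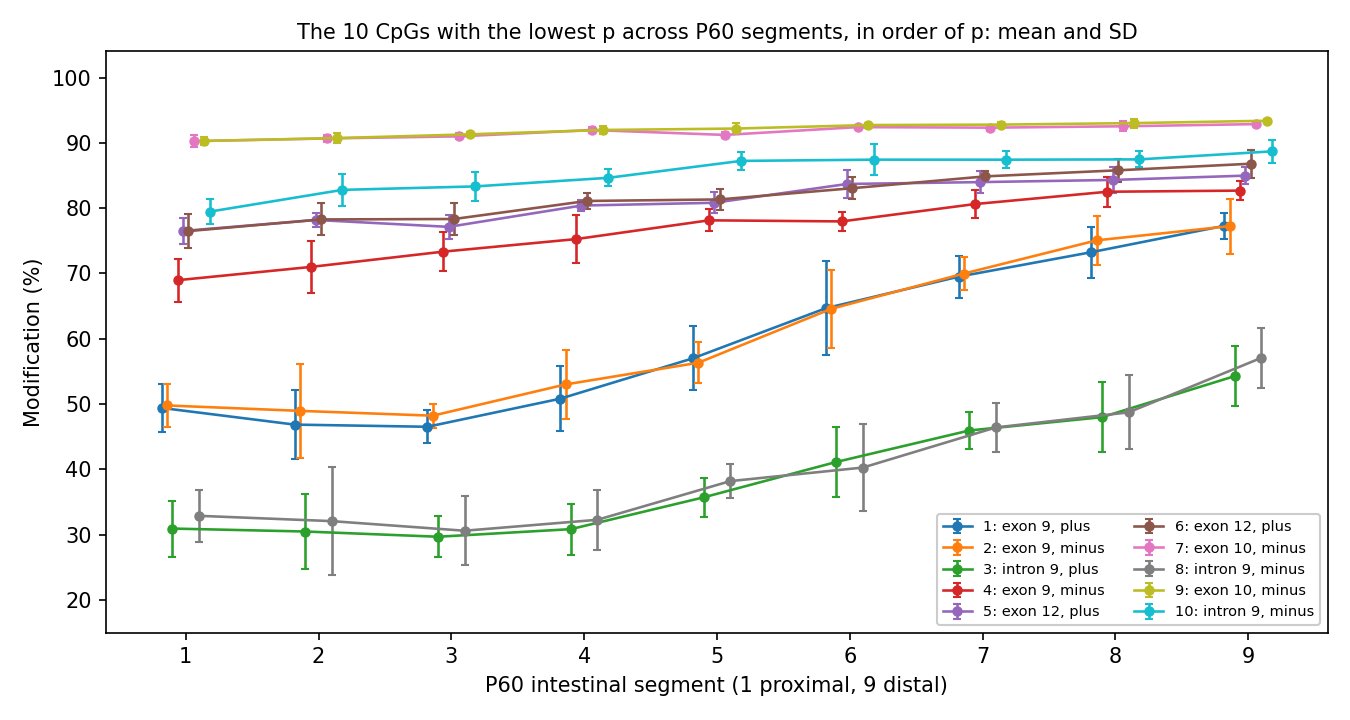
DNA modification (percent, mean and SD over 7 or 8 samples) of the 10 covered CpGs with the lowest p across the P60 segments, by intestinal segment from proximal to distal. Lines are numbered in order of p and named by feature and strand; those at the border of exon 9 and intron 9 start between 30.9% and 49.8% in segment 1 and end between 54.3% and 77.3% in segment 9, while those of exon 10 lie above 90%.

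Further along the gene, exon 12 rose in the same direction. Its plus-strand cytosine at 128293692 lay between 75.5% and 80.7% (median 76.4%) in segment 3 and between 83.03% and 86.8% (median 85.1%) in segment 9, a difference of 7.85 points without overlap (adjusted p = 1.42e-15, F test). The neighbour at 128293683 lay between 76.04% and 83.8% (median 77.9%) in segment 3 and between 82.9% and 88.9% (median 87.1%) in segment 9, so that the groups overlapped (8.47 points, adjusted p = 4.90e-15). The plus-strand cytosine at 128293733 was called too, at 86.2% ± 1.88 in segment 1 and 91.8% ± 1.22 in segment 9. Over the 5 covered CpGs of exon 12 the means of segments 1, 3 and 9 were 83.9% ± 1.14, 85.2% ± 0.739 and 89.8% ± 0.693 (SD, n = 8 each).

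Much smaller differences were also called where reads were many. The exon 10 cytosine at 128295160 on the minus strand, with a median of 7518 reads, went from 90.5% to 91.6% (median 90.9%) in segment 3 to 92.6% to 93.4% (median 92.8%) in segment 9. Its difference was 1.88 points, without overlap (adjusted p = 1.28e-13, F test). Similarly, the one at 128295195 went from a median of 91.3% to 93.4%, 2.08 points apart (adjusted p = 1.78e-13). In intron 9, far from its borders, the minus-strand cytosine at 128297977 ran from 79.1% to 85.4% (median 83.7%) in segment 3 and from 86.2% to 91.96% (median 88.97%) in segment 9, and was lower again in segment 1 at 79.5% ± 1.89 (adjusted p = 1.58e-11). This is the strand of the discordant site that was read at 85.4%.

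The opposite direction was found where intron 9 meets exon 10. All 14 covered cytosines between 128295352 and 128295472 were lower in segment 9 than in segment 3, by 0.660 to 5.48 points, and all 14 were also lower in segment 7 than in segment 3. Of these 14, 10 passed Benjamini-Hochberg at 0.05 across the segments and 2 were called after Bonferroni correction, the minus-strand ones at 128295448 (adjusted p = 1.82e-05, F test) and 128295412 (adjusted p = 0.00927). The other 14 covered CpGs of exon 10 included 11 that were higher in segment 9, of which 3 were called. Averaged over the 14 border cytosines, the levels of segments 1, 3 and 4 were 71.3% ± 1.39, 73.1% ± 1.01 and 73.2% ± 1.13 (SD, n = 8 each), and those of segments 7, 8 and 9 were 68.7% ± 1.16, 69.1% ± 1.73 and 69.9% ± 1.80 (n = 8 each). Samples of segment 3 lay between 71.2% and 74.7% and those of segment 7 between 66.8% and 70.6%, without overlap. Within lanes 5, 6 and 7 the means of segments 3 and 7 were 73.03% and 68.4%, 72.5% and 69.2%, and 74.3% and 68.7%.

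Exon 8, the longest exon of the stretch at 1557 bp, showed another shape near its 3′ end, where it meets intron 8. There segment 1 was lowest and segment 3 or 4 highest. The minus-strand cytosine at 128299898 lay between 73.6% and 87.5% (median 80.9%) in segment 1 and between 88.1% and 90.2% (median 88.6%) in segment 3, and stood at 87.2% ± 0.947 in segment 9. The one at 128299886 went from 75.99% ± 5.60 in segment 1 to 84.6% ± 0.790 in segment 3, with 82.2% ± 1.62 in segment 9. In intron 8, the cytosine at 128299820 went from 39.8% ± 7.78 in segment 1 to 52.1% ± 1.97 in segment 3, with 49.3% ± 1.77 in segment 9. All 3 were called across the segments (adjusted p = 2.59e-05, 1.74e-06 and 1.01e-05, F test). These are minus-strand values, and their plus-strand partners, with P60 medians of 30 reads, were not tested. From segment 3 to segment 9, the plus strand of the intron 8 site rose by 11.5 points and the minus strand fell by 2.77. Segment 1 was also the most variable, with samples as low as 27.8% and as high as 49.7% at 128299820.

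Direct comparisons of 2 segments gave fewer calls. Between segments 9 and 3, 6.92% of the 665 CpGs of the locus were called, and all 46 of these were higher in segment 9. Of the 134 covered CpGs, 8 were called, and all 8 were higher in segment 9. Those with the lowest p were the plus-strand cytosine at 128298481 (adjusted p = 4.01e-09), the minus-strand ones at 128298482 (adjusted p = 2.19e-06) and 128295195 (adjusted p = 6.06e-05), and the plus-strand ones at 128298439 (adjusted p = 0.000174) and 128293692 (adjusted p = 0.000395), all by the F test. The median covered CpG was higher by 0.677 points, and that of the locus by 0.452. Limma on log2 odds called 4, and the cytosines at 128295195 and 128293692 lost their calls under it (adjusted p = 1 and 0.469). With the replicate numbers of the labels as a block, 1 was called. Between segments 3 and 1, 0 of 134 were called by the F test, while 0.15% of the locus was, and 46 had an unadjusted p under 0.05, of which 45 were higher in segment 3. That is 34.3% of the covered CpGs, where 22.7% of the locus had such a p. Limma called 0 as well. The lowest p belonged to 128299898 on the minus strand, at 7.36 points higher in segment 3 (adjusted p = 1). The 2 comparisons share the segment 3 samples.

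The same CpGs were measured in separate P90 mice. Across the 5 segments of P90 lac- mice, 14 of 131 covered CpGs were called, or 10.7%, where 26 of the 642 CpGs of the locus were, or 4.05%. Across those of P90 LAC+ mice 13 of 134 were called, or 9.70%, where 29 of 669 in the locus were, or 4.33%. Of the 26 called in P60, 10 were among the 14 called in lac- mice, which is 38.5% of the P60 list and 71.4% of the lac- list, and 7 were among the 13 called in LAC+ mice, 26.9% and 53.8% of the lists. Over all CpGs of the locus the same shares were 19.6% and 84.6% for lac- and 17.9% and 69.0% for LAC+ mice. The change from segment 3 to segment 8 had the same sign as in P60 at 25 of the 26 in lac- mice and at 26 of 26 in LAC+ mice. Most of the 26 rose in each group, with 20 in P60, 21 in lac- and 20 in LAC+ mice. The same share over the other CpGs of the locus is not given here, so how far the 26 differ from them is not known. Called in all 3 groups were 6 cytosines, namely 128295195 in exon 10, 128297977 in intron 9, 128298603 in exon 9 and 128299886 and 128299898 in exon 8, all on the minus strand, and 128301263 on the plus strand of exon 8. Sequencing lane moved with segment in these mice, because segments 1 and 4 were mostly on lane 3 and segments 3, 7 and 8 mostly on others. With lane as a covariate the counts fell to 1 in lac- and 7 in LAC+ mice, and limma called 2 and 3. The part of lane in the calls was not tested further.

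Named by the lowest p, the lac- calls began with 128294061 on the plus strand in intron 11, at 71.1% ± 1.53 (SD, n = 6) in segment 1 and 78.3% ± 1.56 (n = 7) in segment 8 (adjusted p = 4.51e-05, F test). Next came 128295208 on the minus strand of exon 10 (86.4% and 90.0%), 128298603 (68.6% and 79.4%), 128298661 on the minus strand of exon 9 (90.5% and 94.9%) and 128299898 (81.4% and 86.4%) in the same segments. The LAC+ calls began with 128295160 on the minus strand of exon 10, at 89.0% and 91.8% in segments 1 and 8 (adjusted p = 7.37e-07). It was followed by 128295195 (89.6% and 92.7%), 128294283 on the minus strand of exon 11 (69.4% and 77.1%), 128299886 (79.4% and 82.6%) and 128298603 (69.6% and 78.9%). Under limma none of the 5 lac- cytosines kept its call, and in LAC+ mice 128294283 and 128299886 lost theirs (adjusted p = 0.0840 and 0.131). With the lane covariate 128299898 was the lac- cytosine of these 5 that kept its call, and in LAC+ mice 128295160 and 128298603 lost theirs (adjusted p = 0.0116 and 1).

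The border of exon 9 and intron 9 was not called in P90, although its levels rose in the same order. The means over its 4 cytosines in lac- mice were 44.4% ± 7.78 (SD, n = 6), 39.6% ± 8.60 (n = 6), 48.2% ± 8.64 (n = 7), 56.3% ± 4.19 (n = 6) and 59.99% ± 3.34 (n = 7) for segments 1, 3, 4, 7 and 8. In LAC+ mice they were 48.02% ± 2.25, 46.2% ± 13.6, 51.4% ± 4.65, 56.6% ± 6.09 and 62.98% ± 3.65 (n = 7 each). By SD, samples of segments 3, 4 and 7 in both diets and of segment 1 in lac- mice were more spread than in P60. Those of LAC+ segment 1 and of segment 8 in both diets were not. Among lac- mice of segment 4, the 5 samples on lane 3 averaged 53.1% and the 2 on lane 5 averaged 36.03%, and in segment 1 the corresponding values were 48.7% (4 samples) and 35.7% (2 samples). Segment 3 of LAC+ mice ran from 28.99% to 69.03%, and its highest sample was the only one of the group on lane 2. Without it the mean was 42.4%. On lane 6 alone, the lac- means of segments 3, 7 and 8 were 35.7% (n = 3), 58.2% (n = 4) and 62.03% (n = 4). On lane 7 they were 54.8% (n = 1), 50.8% (n = 1) and 56.9% (n = 2), with segment 3 above segment 7.

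**Figure D3:**
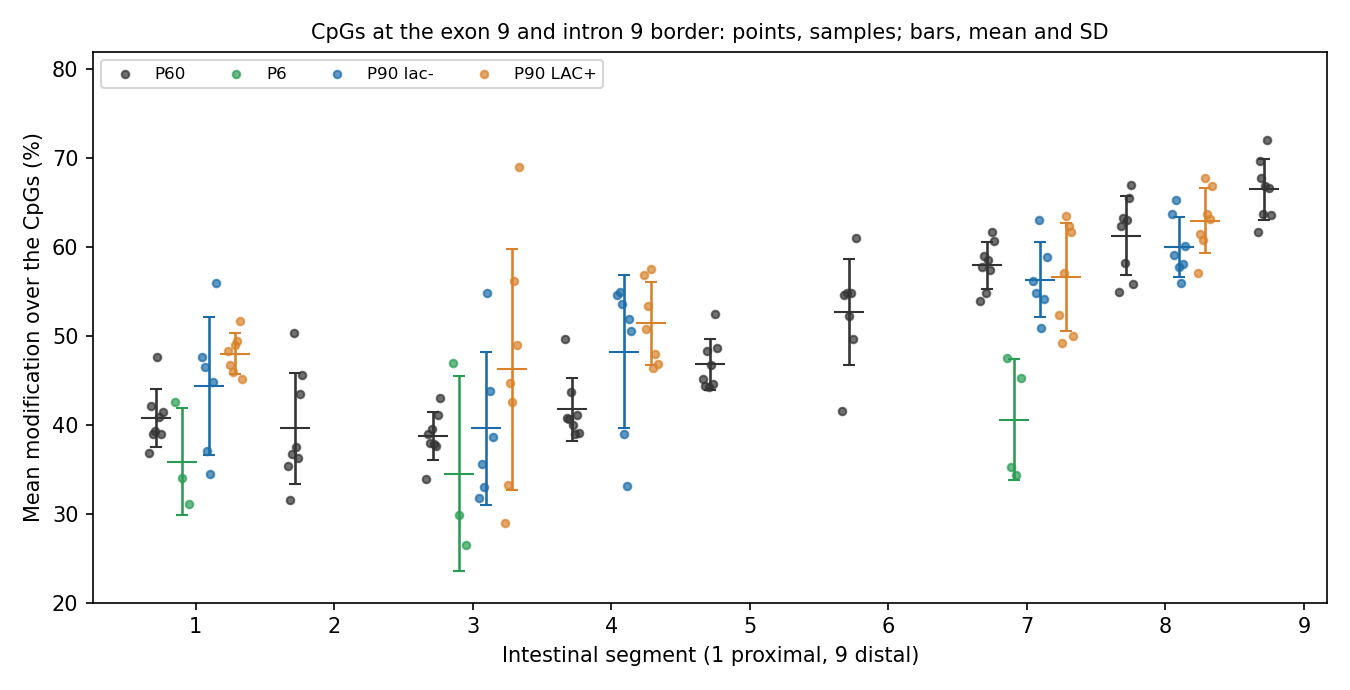
DNA modification averaged over the 4 cytosines at the border of exon 9 and intron 9 (percent) by intestinal segment, for P60, P6, P90 lac- and P90 LAC+ samples. Points are samples and bars the mean and SD; P60 climbs from 38.8% in segment 3 to 66.5% in segment 9, P6 stays at or below 47.5%, and P90 LAC+ samples of segment 3 run from 28.99% to 69.03%.

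Lower levels distally at the border of intron 9 and exon 10 were seen again in P90. For segments 3, 7 and 8 the 14 cytosines averaged 71.3% ± 2.41 (SD, n = 6), 68.5% ± 1.90 (n = 6) and 68.7% ± 2.17 (n = 7) in lac- mice and 72.6% ± 1.42, 69.8% ± 1.39 and 70.4% ± 2.13 (n = 7 each) in LAC+ mice. Samples of segments 3 and 8 overlapped in both diets. On lane 6, lac- mice averaged 73.1% in segment 3 (n = 3) and 68.8% in segment 7 (n = 4), and on lane 7 they read 67.7% and 66.8% (n = 1 each).

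**Figure D4:**
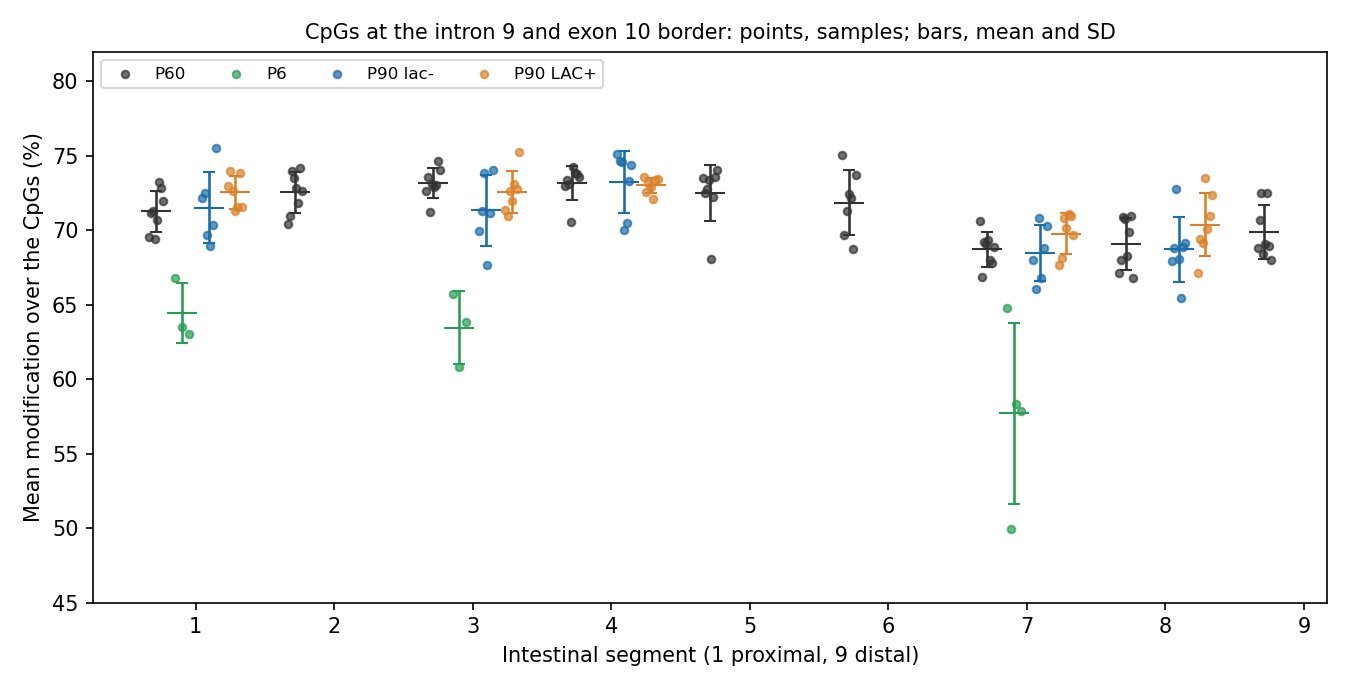
DNA modification averaged over the 14 cytosines at the border of intron 9 and exon 10 (percent) by intestinal segment, for P60, P6, P90 lac- and P90 LAC+ samples. Points are samples and bars the mean and SD; P60 goes from 73.1% in segment 3 to 68.7% in segment 7, and P6 lies between 49.9% and 66.8%.

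A second question was how infants differ from adults in the same segment. In segment 1, 1 of 131 covered CpGs was called between P6 and P60, or 0.763%, where 0.624% of the 641 CpGs of the locus were. In segment 3, 3 of 131 were called, or 2.29%, where 0.623% of 642 in the locus were. In segment 7, 0 of 131 were called by the F test, where 0.93% of 645 in the locus were. Of these 131, 64 had an unadjusted p under 0.05, and limma called 1. The 64 are 48.9% of the covered CpGs, near the 42.8% of the locus. By Benjamini-Hochberg at 0.05, 18, 22 and 34 passed in segments 1, 3 and 7, and P60 was higher at 10, 21 and 32 of them. These counts are 13.7%, 16.8% and 25.95% of the covered CpGs, where 11.7%, 10.7% and 21.7% of the locus passed. The 4 called were all higher in P60. In the locus, 4 of 4, 4 of 4 and 5 of 6 called CpGs were higher in P60 in segments 1, 3 and 7.

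The called CpG of segment 1 was 128295381 on the plus strand, in intron 9 just upstream of exon 10. Its 3 infant samples read 71.97%, 75.8% and 71.92%, all below the adult range of 87.8% to 90.4% (median 89.05%). The difference was 15.9 points (adjusted p = 0.00145, F test). It lost its call when P6 replicate 1 or replicate 3 was left out (adjusted p = 0.0249 and 0.0229), and under limma (0.0691). In segment 3, the minus-strand cytosine at 128295418 read 44.7%, 41.8% and 42.5% in infants and 54.1% to 58.7% (median 55.6%) in adults (adjusted p = 0.00162). Its neighbour at 128295412 read 73.4%, 74.4% and 76.99% in infants and 84.3% to 88.5% (median 86.02%) in adults (adjusted p = 0.00812). The intron 8 cytosine at 128298854 on the minus strand, near the upstream end of exon 9, read 75.8%, 69.2% and 74.4% in infants and 87.9% to 90.3% (median 89.35%) in adults (adjusted p = 0.00303). Infants lay below adults without overlap at each of these, but the 3 calls of segment 3 became 1 without P6 replicate 2 or 3 and 5 without replicate 1, and 0 under limma or with the replicate block. In segment 7 the lowest p was at 128300143 on the minus strand of exon 8, where 4 infants read 73.9%, 68.3%, 70.5% and 68.1% and adults 77.9% to 82.4% (adjusted p = 0.137).

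Age differences were also described by stretch. The 2 covered cytosines at the end of intron 8, at 128298853 and 128298854, passed Benjamini-Hochberg in all 3 segments. Their mean was 78.5% ± 2.86 (SD, n = 3), 72.2% ± 4.35 (n = 3) and 71.8% ± 8.78 (n = 4) in P6 and 89.2% ± 1.246, 89.4% ± 0.560 and 91.7% ± 0.668 (n = 8 each) in P60, without overlap. Exon 9 as a whole averaged 79.6% ± 1.82, 78.2% ± 3.14 and 78.7% ± 4.59 in P6 and 81.9% ± 0.982, 82.8% ± 0.784 and 87.6% ± 0.592 in P60, without overlap in segment 7. At the border of intron 9 and exon 10, P60 was higher at 13, 14 and 14 of the 14 cytosines in segments 1, 3 and 7, by a median of 6.66, 9.61 and 10.1 points, and 5, 9 and 9 passed Benjamini-Hochberg. The P6 samples averaged 66.8%, 63.5% and 63.03% in segment 1. Those of segment 3 averaged 65.7%, 60.8% and 63.8%, and those of segment 7 averaged 64.8%, 49.9%, 58.3% and 57.9%. Adults of the same segments lay between 69.4% and 73.2%, 71.2% and 74.7%, and 66.8% and 70.6%. At every one of these 3 segments all infants were below all adults. At the border of exon 9 and intron 9, P60 was higher by a median of 16.95 points in segment 7, where 3 of the 4 cytosines passed Benjamini-Hochberg, and by 5.98 and 4.98 points in segments 1 and 3, where 0 did. Infant samples there averaged 42.6%, 33.99% and 31.1% in segment 1. Those of segment 3 averaged 47.01%, 29.9% and 26.5%, and those of segment 7 averaged 47.5%, 35.3%, 34.3% and 45.2%. Samples of the 3 infant segments overlapped. Taken by replicate number, which does not mark a known animal, segment 7 was the highest of the 3 segments in replicates 1, 2 and 3.

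In the block from intron 9 to intron 8, which holds exon 9, the median differences of segments 1, 3 and 7 were 0.509, 2.51 and 3.41 points, and 3, 6 and 10 of 32 passed Benjamini-Hochberg. Smaller medians were found elsewhere. In the block from intron 10 to intron 12, the median differences of segments 1, 3 and 7 were -0.616, 0.0884 and 0.363 points. In exon 8 with the start of intron 8 they were -0.0980, -0.218 and 0.242 points. Infants were the higher group at 128294283 in exon 11, which stood at 81.99% ± 0.554 (SD, n = 3) in segment 1 of P6 and 73.1% ± 3.61 (n = 8) in P60. Modification outside CpGs was 0.484% in P6 and 0.381% in P60, and the part of conversion in the age differences was not tested.

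**Figure D5:**
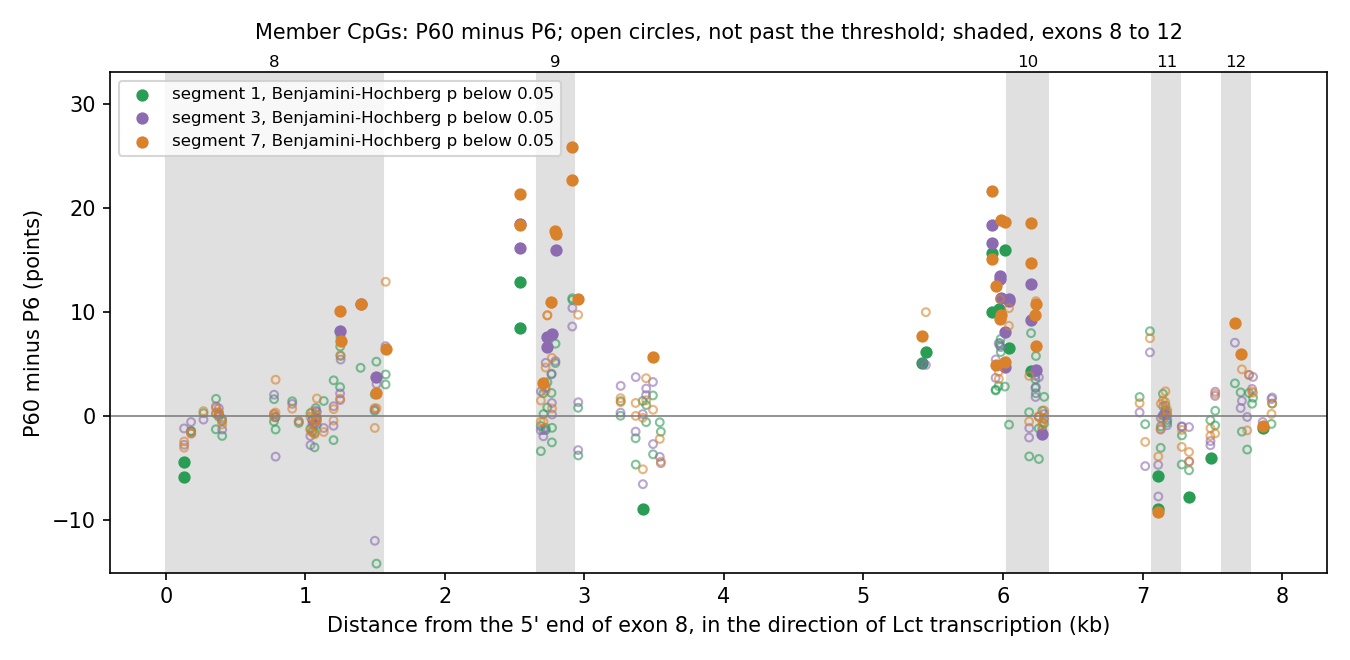
Difference in DNA modification between P60 and P6 (percentage points, P60 minus P6) of each covered CpG in segments 1, 3 and 7, by distance in kb from the 5′ end of exon 8 in the direction of transcription. Filled points passed a Benjamini-Hochberg adjusted p of 0.05 and open points did not, exons are shaded, and most filled points above 0 lie between exon 10 and the end of intron 8.

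Whether the change along the intestine itself differs with age was tested as an interaction. By the F test 0 of 131 covered CpGs were called (0% of 639 in the locus) and 0 by limma. The lowest p was at 128298603 on the minus strand (unadjusted p = 0.000317, adjusted p = 1). Its P6 means were 63.9% ± 3.12 (SD, n = 3), 68.05% ± 3.66 (n = 3) and 62.9% ± 7.27 (n = 4) in segments 1, 3 and 7, against 69.0% ± 3.31, 73.3% ± 2.96 and 80.6% ± 2.12 (n = 8 each) in P60. Among the P6 segments alone, 0 of 131 were called (0% of 639), 0 by limma, and the lowest p was at 128299886 (unadjusted p = 0.00124, adjusted p = 1), with 70.8% ± 3.54 (SD, n = 3), 80.8% ± 0.599 (n = 3) and 76.9% ± 0.934 (n = 4). As in adults, segment 1 was the lowest there. With 3 or 4 infants per segment these tests could miss differences of the size seen in adults.

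The last question was whether these CpGs differ with lactose in the diet. CpGs above 90% in the samples compared were removed, which left 91, 72, 82, 63 and 67 covered CpGs in segments 1, 3, 4, 7 and 8. None was called in any segment by the F test (0 of each, and 0% of the 414, 357, 388, 323 and 332 CpGs of the locus), and none by limma. At an unadjusted p under 0.05 there were 9, 9, 1, 8 and 15, or 9.89%, 12.5%, 1.22%, 12.7% and 22.4%, where the locus had 6.76%, 5.32%, 5.93%, 14.2% and 20.5%. The median difference between LAC+ and lac- was 0.608, 0.0786, -0.200, -0.253 and 0.341 points. No covered CpG was called for a diet by segment interaction either (0 of 77 by the F test or limma, 0% of 353), where the lowest p was at 128299999 on the minus strand of exon 8 (unadjusted p = 0.00694).

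In segments 1, 4 and 8 the CpG with the lowest p was small in effect. In segment 1 it was 128294061 in intron 11, at 72.7% ± 0.712 (SD, n = 7) with LAC+ and 71.1% ± 1.53 (n = 6) with lac- (adjusted p = 1, F test). In segment 4 it was 128294264 on the plus strand of exon 11, at 89.2% ± 0.840 and 90.6% ± 0.984 (n = 7 each, adjusted p = 1). Segment 8 had 128301213 on the plus strand of exon 8, at 88.9% ± 0.770 and 90.02% ± 0.261 (n = 7 each, adjusted p = 0.118). It passed Benjamini-Hochberg at 0.05 (0.0393), as did 128298853 on the plus strand of intron 8, at 88.1% ± 1.97 and 91.7% ± 1.09 (0.0458). These 2 are 2.99% of the covered CpGs tested, where 4.52% of the locus passed.

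In segments 3 and 7 the lowest p belonged to the same exon 12 cytosine, at 128293733 on the plus strand. With LAC+ it ranged from 78.97% to 86.8% (median 83.7%) in segment 3 and from 81.5% to 89.5% (median 85.5%) in segment 7, and with lac- from 84.3% to 91.9% (median 86.8%) and from 89.2% to 92.5% (median 90.5%). The groups overlapped in both, and the differences were -3.81 points (unadjusted p = 0.0143) and -5.24 points (unadjusted p = 0.00103, adjusted p = 0.331). It was lower with LAC+ in all 5 segments, at 82.8%, 83.2%, 81.8%, 85.5% and 86.5% against 84.1%, 87.0%, 84.7%, 90.8% and 91.2%. Averaged over the 5 CpGs of exon 12, LAC+ stood at 81.1% ± 0.840, 81.6% ± 1.97, 80.7% ± 2.26, 84.5% ± 2.96 and 85.6% ± 1.88 (n = 7 each), and lac- at 81.6% ± 1.47 (n = 6), 84.9% ± 2.24 (n = 6), 82.7% ± 1.67 (n = 7), 88.4% ± 1.20 (n = 6) and 88.9% ± 1.73 (n = 7). Samples of the 2 diets overlapped in each segment. LAC+ samples of segments 3, 7 and 8 were on lane 1, except 1 on lane 2, while 1 lac- sample per segment was, so that diet and lane can hardly be told apart there. Those lac- samples on lane 1 read 86.96%, 89.2% and 87.4% at 128293733. The first lay just above the LAC+ range of its segment and the others within theirs, the second near the top. With 1 such sample per segment, the part of lane was not tested.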

How the data were processed

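The authors converted DNA with bisulfite, captured it with padlock probes, trimmed reads (Trimmomatic 0.32 in the submitters' processing notes), mapped them with Bismark to GRCm38 and deposited, for each cytosine of 148 samples, counts of modified and unmodified reads, without normalization. Lanes were read from file names, and a first line whose columns had run together, at a position outside the locus, was left out. Percent modification was computed at more than 30 reads. A cytosine entered a test where each group had 3 or more samples above 30 reads. The test was a quasi-binomial F test (1 dispersion per cytosine) over all cytosines of the *Lct–Mcm6* locus. Bonferroni correction at 0.01 ran over CpGs and other cytosines together, and for diet over CpGs up to 90% modified. The first letters of each probe were placed on GRCm38 by sequence (304 of 304), and exons came from GENCODE vM21. The stretch, the lists and the tests were chosen with earlier results of these data known. Blocks, borders (within 40 bp of the exon 9 end, and 20 bp inside to 120 bp outside exon 10) and the removal of probe arm cytosines from means were set after the values were seen.

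Cytosines named were, per comparison, the called ones in order of p (up to 10 for the P60 segments, up to 5 otherwise), or the lowest p where none was called, with the 5 lowest and 3 highest P60 levels and the 3 largest strand differences. Others named, such as those of exon 8 and intron 8 with segment 1 lowest, were chosen after their values were seen. Alternatives were coverage above 10 and above 100 reads, Benjamini-Hochberg at 0.05, correction over CpGs alone, limma on log2 odds (pseudocount 0.5), the replicate number as a block, a lane covariate, no removal above 90%, and samples left out. The F test was tested on simulated data. Python 3.11.15, NumPy 2.4.6, SciPy 1.17.1, pandas 2.3.3, Matplotlib 3.10.9, R 4.3.3 and limma 3.58.1 were used.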

Additional observations from a re-analysis of the deposited data

Results flagged for a closer look

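Over 120 sets of samples (the means of 4 blocks of neighbouring covered CpGs and of both exon borders, in each group of 4 to 10 samples), 7 had a highest or lowest sample that stood apart by Dixon's criterion, which chance alone passes in about 1 of 20. P60 segment 5 replicate 5 stood below the others in 3 of them, at 80.6% in the block of exon 10 and neighbouring intron 9 (others 82.5% to 83.6%), at 87.9% in the block of exon 8 and the start of intron 8 (others 89.3% to 90.3%) and at 68.1% at the intron 9 and exon 10 border (others 72.2% to 74.02%). P60 segment 4 replicate 4 read 70.6% at that border (others 73.0% to 74.2%), and P60 segment 4 replicate 1 read 49.6% at the exon 9 and intron 9 border (others 39.01% to 43.7%). In P90 LAC+ mice, segment 8 replicate 1 read 89.4% in the block from intron 10 to intron 12 (others 86.8% to 87.3%) and segment 1 replicate 6 read 80.1% in the block of exon 9 with its introns (others 78.4% to 78.98%). The P60 samples named were all run on lane 6. Their part in the results was not tested.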

How the results depend on the processing

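Of the recomputed counts of called CpGs, 128 stayed within 1.5 times the reported one, 17 were higher and 15 lower. Benjamini-Hochberg at 0.05 raised the counts to 56 across P60 segments, 25 between segments 9 and 3, 18, 22 and 34 for age in segments 1, 3 and 7, 2 for diet in segment 8, 67 across P90 lac- and 43 across P90 LAC+ segments. Bonferroni over CpGs alone gave 41 across P60 segments, 3, 9 and 2 for age in segments 1, 3 and 7, 26 across P90 lac- and 22 across P90 LAC+ segments. The 41 are of 131 tested, where 149 of 653 CpGs of the locus were called. Limma gave 4 between segments 9 and 3, 0, 0 and 1 for age in the 3 segments, 2 across lac- and 3 across LAC+ segments. Lane as a covariate gave 1 across lac- and 7 across LAC+ segments. With the replicate block, 1 was called between segments 9 and 3, 0 for age in segment 1 and 0 in segment 3, and 5 across lac- segments, against 25 across the P60 segments; it changed no other count by over 1.5 times. The numbers do not mark a known animal, and 7 of 9 same-numbered P6 pairs and 110 of 280 P60 pairs correlated above 0.1. The mean correlation of same-numbered pairs was 0.421 in P6 and 0.0381 in P60. That of other pairs was -0.148 and -0.00532. Without 1 P6 sample at a time the counts were 0 to 1, 1 to 5 and 0 to 2 for age in segments 1, 3 and 7, and 0 for the interaction and among P6 segments. Apart from Benjamini-Hochberg and the 41, the share of the locus is not given for these counts. They show only how the calls depend on the setting. The causes were not tested. The closest of all 449 pairs of samples within a group differed by 2.59 times binomial sampling noise. Repeat libraries of 1 mouse could differ as much, so this does not show separate mice, and samples were counted as the labels list them.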
